A study of Mus musculus with 6 samples.

Results

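Metallothionein and zinc transporter genes were examined in liver tumors that formed with or without the orphan nuclear receptor Nr2e3. Genes were chosen by name, as the rows of the count table whose symbol was Mt1, Mt2, Mtf1, Slc39a14, Slc39a4, Slc30a1 or Slc30a10. These are 7 of the 24063 genes listed, and all 7 passed the filter on low counts together with 13565 other genes. RNA was sequenced from 3 WT and 3 Nr2e3-/- tumors of male C57BL/6 mice, 1 library per sample, after injection of diethylnitrosamine (DEN), a carcinogen that is activated in hepatocytes. Both genotypes received DEN at 25 mg per kg at 15 days of age, and the tumors belong to the 24-week time point. No Cre driver or tissue restriction is named for the Nr2e3-/- allele, so as far as stated the loss is not limited to hepatocytes. The comparison asks which genes differ between tumors that formed in the presence and in the absence of NR2E3.

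Metallothioneins are small cysteine-rich proteins that bind zinc and copper, and the liver is a main site of their synthesis. Their genes are switched on by MTF-1, a transcription factor that senses free zinc and binds metal response elements (MREs) in promoters, and in liver they also respond to glucocorticoids and to interleukin-6. Zinc enters the cytosol through the ZIP transporters of the Slc39 family and leaves it, to the outside or into organelles, through the ZnT transporters of the Slc30 family. Metallothioneins bind zinc within the cytosol.

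Mt1 and Mt2 lie side by side in the same direction on chromosome 8, at chr8:94179082-94180327 and chr8:94172664-94173568 on the plus strand of GRCm38 (GENCODE M21), with 5513 bases from the end of Mt2 to the start of Mt1. Their upstream sequences are printed because they hold matches to the core of the MRE, the element through which both genes are known to be regulated. The MRE core was searched on both strands as the letters TGCACNC or TGCGCNC, and capitals mark each match. On the minus strand a match reads as its reverse complement. The sequences are from RefSeq (GRCm38.p6), written 5′ to 3′ on the gene's strand, and end before the annotated first exon. The Mt1 stretch covers chr8:94178839-94179081 (243 bases) and the Mt2 stretch chr8:94172368-94172617 (250 bases).
Mt1: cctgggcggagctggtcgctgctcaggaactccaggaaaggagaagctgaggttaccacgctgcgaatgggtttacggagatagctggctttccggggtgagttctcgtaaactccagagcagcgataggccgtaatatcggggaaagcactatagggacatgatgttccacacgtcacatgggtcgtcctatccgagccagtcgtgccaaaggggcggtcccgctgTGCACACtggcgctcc
Mt2: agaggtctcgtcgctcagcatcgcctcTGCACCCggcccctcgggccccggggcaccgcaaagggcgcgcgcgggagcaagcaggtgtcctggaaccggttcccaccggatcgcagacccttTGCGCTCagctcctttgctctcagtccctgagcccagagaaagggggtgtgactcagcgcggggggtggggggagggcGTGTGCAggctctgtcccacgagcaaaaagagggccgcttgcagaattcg

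More cores lay inside the annotated first exons, in sequence that the annotation places in the 5′ untranslated part. They are shown as short stretches because the cores are what Mt1 and Mt2 share there. The Mt1 stretches cover chr8:94179091-94179115 and chr8:94179173-94179193, and the Mt2 stretches cover chr8:94172676-94172701 and chr8:94172729-94172735.
Mt1, distal pair: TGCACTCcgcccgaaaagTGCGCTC
Mt1, proximal pair: GGGTGCAaacccttTGCGCCC
Mt2, distal pair: GTGTGCAggcggcgggggcGCGTGCA
Mt2, proximal core: TGCGCTC

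Counted back from the start codon, Mt1 had 5 cores within 472 bases and Mt2 had 7 within 480 bases. The Mt1 cores began between 245 and 124 bases before the start codon. The Mt2 cores reached further out, beginning between 453 and 119 bases before it, and include 1 at chr8:94172622-94172628, between the stretches printed. Both genes carried the letters TATAAA downstream of their last core, 101 bases before the start codon in Mt1 and 95 in Mt2. The annotated exon start thus lay upstream of this TATA motif in both genes. The annotated starts may therefore not be the main transcription starts. Whether the cores inside the annotated exons are transcribed was not tested.

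**Figure D1:**
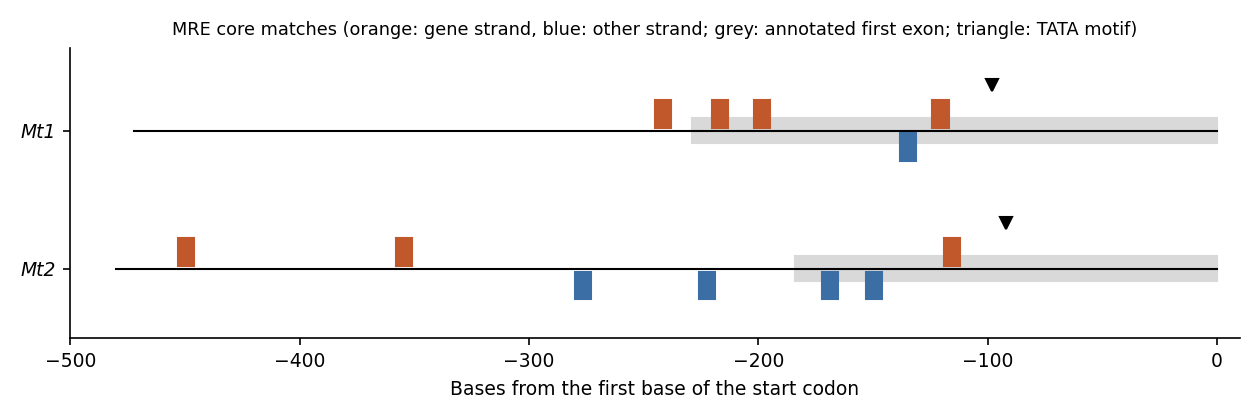
Places of MRE core matches upstream of Mt1 and Mt2, in bases from the first base of the start codon, with matches on the gene's strand above the line (orange) and on the other strand below it (blue), the annotated first exon in grey and the TATA motif as a triangle. Mt1 has 5 matches and Mt2 has 7, and in both genes all of them lie on the far side of the TATA motif.

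A window of 250 bases before the RefSeq gene start was in the promoter table for 5 of the 7 genes, Mt1, Mt2, Mtf1, Slc30a1 and Slc30a10. Of all 32851 windows in the table, 21.4% held at least 1 MRE core and 1.26% held at least 3. In these windows Mt1 and Slc30a1 each had 1 core, Mtf1 had 0, and Mt2 and Slc30a10 each had 3. A STAT motif, TTCNNNGAA, was in none of the 5 windows and in 7.02% of all windows. The antioxidant response element core, TGACNNNGC, was found once in the windows of Mt2 and Slc30a1 and in 10.2% of all windows. For Mt1 and Mt2 the windows end upstream of the TATA motif and leave out the MRE cores nearest to it. Motif counts in the windows therefore do not cover the sequence next to the TATA motif of these genes. The Slc30a10 window is printed because it matched Mt2 in its number of cores. It covers chr1:185454598-185454847, and its first capitals hold a pair of overlapping cores on opposite strands.
Slc30a10: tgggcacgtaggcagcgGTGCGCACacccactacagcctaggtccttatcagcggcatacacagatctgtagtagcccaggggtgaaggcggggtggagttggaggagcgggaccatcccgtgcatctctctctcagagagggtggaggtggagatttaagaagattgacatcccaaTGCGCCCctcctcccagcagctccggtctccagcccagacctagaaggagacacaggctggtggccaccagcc

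Depth was between 15376261 and 28690279 counts per library. Nr2e3 itself had 0 counts in each of the 6 libraries, which allows up to 0.195 CPM in the shallowest (3 counts, counting error only), so its own counts could not check the genotypes. All 8 hepatocyte markers were present, with a summed level of 128971 to 158278 CPM in WT and 114103 to 135671 CPM in Nr2e3-/- tumors. The 6 libraries were compared with edgeR's quasi-likelihood test on TMM-normalised counts, and levels are given as TMM-normalised CPM (counts per 1000000 counts of a library). Only 0.0958% of the genes tested (13 of 13572) reached an adjusted p under 0.05 (Benjamini-Hochberg). Nr2e3-/- replicate 1 stood apart from the other Nr2e3-/- libraries and was the shallowest. Without it 21.8% of the genes tested (3022 of 13840) passed, so the log2 fold change of each of the 7 genes is also given without it. Whether samples of one genotype came from separate litters or cages is not stated, and p-values measure only the spread between these samples.

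With edgeR, 0 of the 7 genes passed an adjusted p of 0.05 in the comparison of all 6 libraries, while DESeq2 and limma-voom each called 3. At an unadjusted p under 0.05, Mt1, Mt2, Slc39a14 and Slc30a10 were higher in Nr2e3-/- tumors and 0 of the 7 were lower. The background for these counts was 11.8% of all genes tested higher and 9.72% lower. Groups did not overlap for 5 genes, 4 of them higher (Mt1, Mt2, Slc39a14 and Slc30a10) and 1 lower (Slc30a1), beside 13.9% of all genes tested that were higher and 12.9% that were lower without overlap. As a median, the log2 fold change was 0.44 over the 7 genes and 0.01 over all genes tested. In bulk tumor RNA, more cells of a type and more RNA per cell cannot be told apart.

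**Figure D2:**
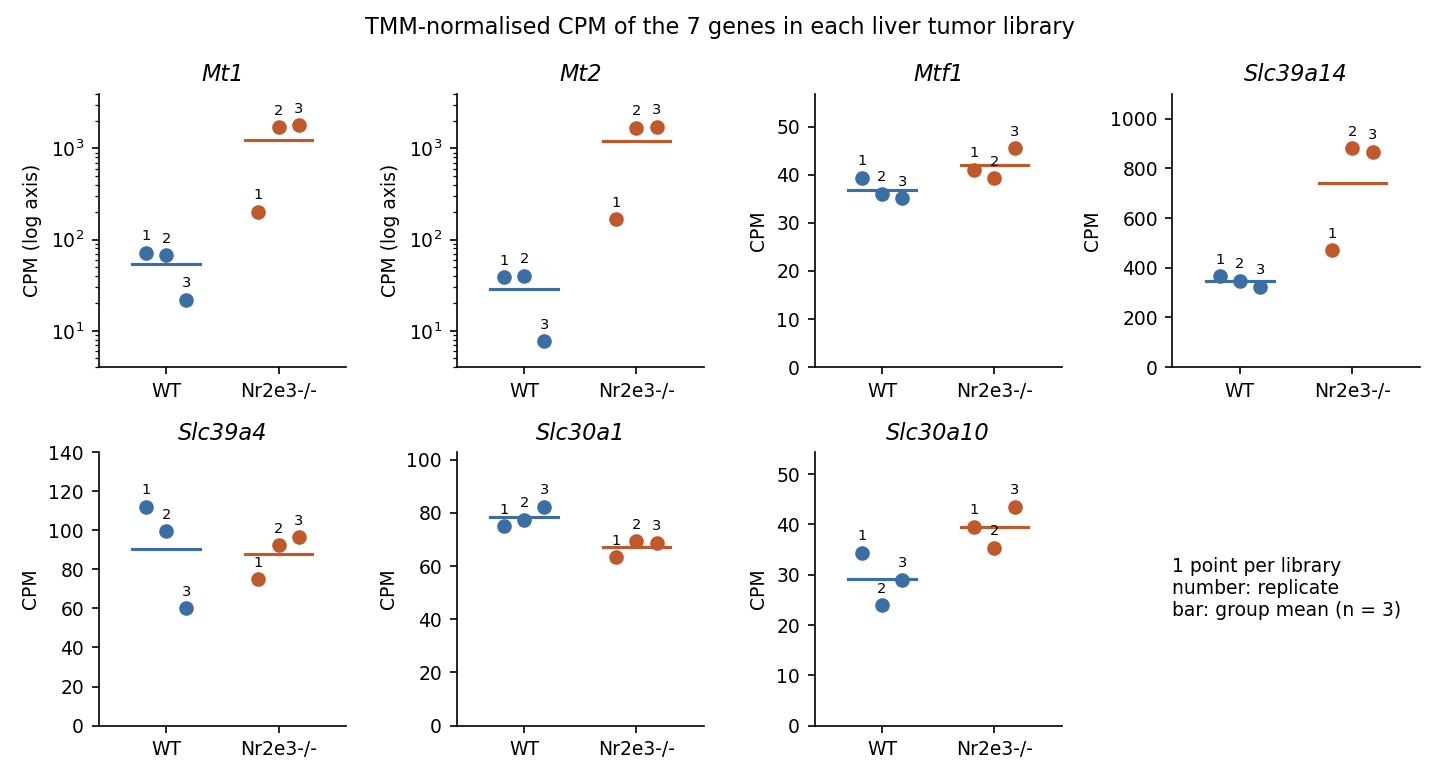
TMM-normalised CPM of each of the 7 genes in the 3 WT (blue) and 3 Nr2e3-/- (orange) libraries, with replicate numbers at the points and a bar at each group mean. The Mt1 and Mt2 axes are logarithmic, and there Nr2e3-/- replicate 1 (202 and 167 CPM) lies between the WT libraries and the other Nr2e3-/- libraries.

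Mt1 encodes one of the pair of metallothioneins made in liver. It measured 71.5, 67.2 and 21.8 CPM in WT replicates 1, 2 and 3 and 202, 1714 and 1798 CPM in Nr2e3-/- replicates 1, 2 and 3. Each Nr2e3-/- library was above each WT library, but replicate 1 reached only 3.78 times the WT mean while replicates 2 and 3 reached 32.0 and 33.6 times. Mean levels were 53.5 ± 27.5 CPM in WT and 1238 ± 898 CPM in Nr2e3-/- tumors (both SD, n = 3). The log2 fold change was 4.53 (SE 0.89, 95% interval 2.45 to 6.61), with an adjusted p of 0.093 from edgeR. By size of log2 fold change Mt1 was 6th from the top of the 13572 genes tested. Without Nr2e3-/- replicate 1 the log2 fold change was 5.05 (SE 0.50) and passed the test, with an adjusted p of 0.00299 from edgeR.

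Mt2 encodes the other hepatic metallothionein. It measured 38.8, 40.0 and 7.73 CPM in WT replicates 1, 2 and 3 and 167, 1689 and 1722 CPM in Nr2e3-/- replicates 1, 2 and 3. The order of the libraries was near that of Mt1, with WT replicate 3 lowest and Nr2e3-/- replicates 2 and 3 far above replicate 1. The Nr2e3-/- libraries were 5.8, 58.6 and 59.7 times the WT mean. The log2 fold change was 5.37 (SE 1.04, 95% interval 2.92 to 7.83), 3rd from the top of all genes tested, with an adjusted p of 0.093 from edgeR. Without Nr2e3-/- replicate 1 it was 5.89 (SE 0.68, adjusted p = 0.00432 from edgeR).

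The balance of the pair also differed between libraries. Mt2 made up 35.2%, 37.3% and 26.2% of the Mt1 and Mt2 counts in WT replicates 1, 2 and 3 and 45.3%, 49.6% and 48.9% in Nr2e3-/- replicates 1, 2 and 3. WT tumors thus had more Mt1 than Mt2 counts, while the genes were nearly level in Nr2e3-/- replicates 2 and 3. Exact (Clopper-Pearson) 95% intervals, which cover counting error only, were widest in WT replicate 3 (23.3% to 29.3%, 852 counts) and narrowest in Nr2e3-/- replicate 2 (49.3% to 50.0%, 91659 counts). No Nr2e3-/- interval touched a WT interval, replicate 1 included (44.0% to 46.6%). Mean shares were 32.9% ± 5.92 for WT against 47.9% ± 2.34 for Nr2e3-/- tumors (both SD, n = 3), which is a difference of 15 percentage points. A two-sided exact permutation test gave p = 0.1, the smallest that 3 against 3 samples allow. The Mt1 and Mt2 transcripts share no identical run longer than 20 bases.

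Together the pair took 0.0114%, 0.011% and 0.00311% of all counts in WT replicates 1, 2 and 3. In Nr2e3-/- tumors it took 0.0363%, 0.323% and 0.336%. Ordered by counts in a library, Mt1 stood at place 56 and Mt2 at place 59 in Nr2e3-/- replicate 2, at 63 and 65 in replicate 3, and at 663 and 811 in replicate 1. In WT replicate 1, the WT library where Mt1 stood highest, they were at places 1932 and 3485. With the counts of both genes summed into 1, the log2 fold change was 4.88 (SE 0.95) and the adjusted p from edgeR was 0.0934.

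**Figure D3:**
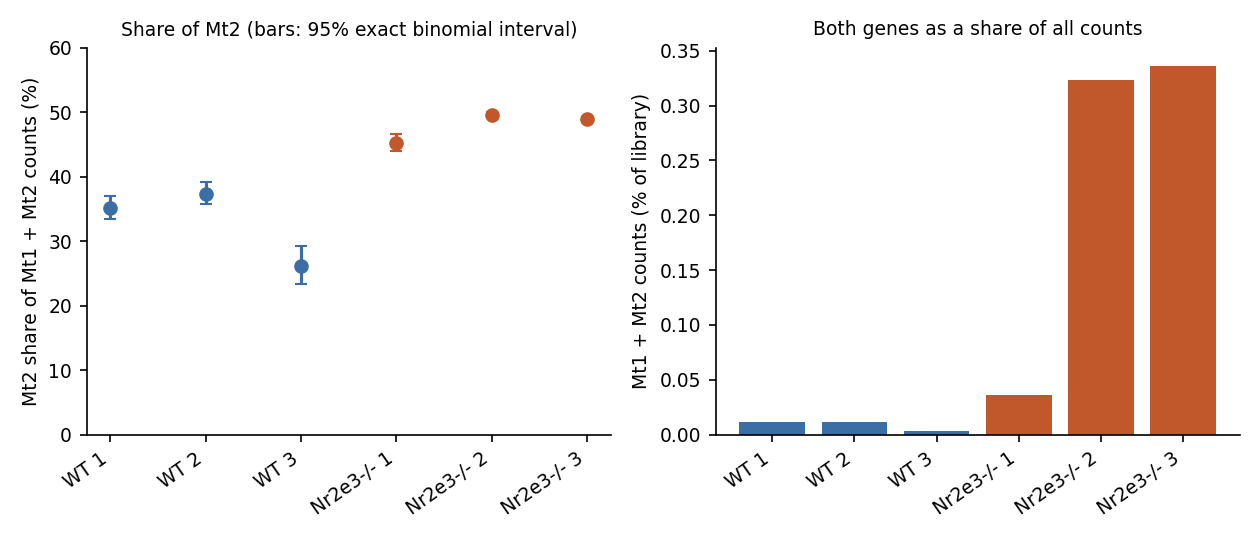
Left, share of Mt2 in the summed Mt1 and Mt2 counts of each library (%), with 95% exact binomial intervals, and right, both genes as a percentage of all counts of the library, with WT in blue and Nr2e3-/- in orange. The Mt2 share is 26.2% to 37.3% in WT and 45.3% to 49.6% in Nr2e3-/- libraries, while the share of all counts in Nr2e3-/- replicate 1 (0.0363%) is far below that of replicates 2 and 3.

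Both other metallothionein genes of the cluster were nearly silent. Mt3, best known from brain, had 0, 0 and 1 counts in WT and 2, 6 and 2 in Nr2e3-/- replicates 1, 2 and 3. Mt4, known from stratified epithelium, had 0 counts in the WT libraries and 0, 10 and 4 in the Nr2e3-/- libraries. Neither passed the filter, so neither was tested. Genes on either side of the cluster differed less than Mt1 and Mt2. Bbs2, upstream of the cluster, had a log2 fold change of -0.23 (SE 0.25, adjusted p = 0.62 from edgeR), and Nup93, downstream of it, had 0.31 (SE 0.17, adjusted p = 0.314). Ogfod1 had 0.34 (SE 0.13, adjusted p = 0.205). An antisense gene, Gm45774, overlaps Mt2, and the counting is not stated to use strand.

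Mtf1 encodes the zinc sensor itself, on chromosome 4 (chr4:124802104-124849800, plus strand). It measured 39.4, 36.0 and 35.1 CPM in WT and 41.0, 39.3 and 45.5 CPM in Nr2e3-/- replicates 1, 2 and 3. The groups overlapped by a narrow margin, since Nr2e3-/- replicate 2 lay just below WT replicate 1. Its log2 fold change was 0.19 (SE 0.10, 95% interval -0.06 to 0.43, adjusted p = 0.335 from edgeR), and 0.21 (SE 0.11) without Nr2e3-/- replicate 1. The upper bound of 0.43 was below the lower bounds for Mt1 (2.45) and Mt2 (2.92). On the opposite strand 1110065P20Rik overlaps Mtf1.

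Slc39a14 encodes ZIP14, a plasma membrane importer of zinc, manganese and non-transferrin iron in hepatocytes, and is known to respond to interleukin-6. It lies at chr14:70303469-70351425 on the minus strand. Its levels were 365, 347 and 323 CPM in WT and 471, 881 and 866 CPM in Nr2e3-/- replicates 1, 2 and 3. Nr2e3-/- libraries were again all above WT, with replicate 1 closest to WT at 1.37 times the WT mean and the other libraries at 2.55 and 2.51 times. Unlike Mt1 and Mt2, WT levels were close to each other, at 345 ± 21.1 CPM (SD, n = 3), and the Nr2e3-/- mean was 739.6 ± 233 CPM (SD, n = 3). The log2 fold change was 1.10 (SE 0.24, 95% interval 0.53 to 1.67, adjusted p = 0.1 from edgeR). Without Nr2e3-/- replicate 1 it was 1.35 (SE 0.11) and passed the test, with an adjusted p of 0.00193 from edgeR.

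Slc39a4 encodes ZIP4, the zinc importer of the small intestine whose loss causes acrodermatitis enteropathica. At chr15:76612383-76617384 on the minus strand, it measured 112, 99.5 and 60.1 CPM in WT and 74.9, 92.2 and 96.4 CPM in Nr2e3-/- replicates 1, 2 and 3. WT replicate 3 was the lowest of all libraries and WT replicate 1 the highest, so the Nr2e3-/- levels lay inside the WT range. The log2 fold change was -0.04 (SE 0.23, adjusted p = 0.926 from edgeR), with a 95% interval of -0.59 to 0.50. Its sign turned to 0.07 without Nr2e3-/- replicate 1.

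Slc30a1 encodes ZnT1, the zinc exporter of the plasma membrane and a known MTF-1 target. It lies at chr1:191906767-191913247 on the plus strand, overlapped by the antisense gene 1700034H15Rik. Levels were 75.0, 77.5 and 82.3 CPM in WT and 63.4, 69.4 and 68.8 CPM in Nr2e3-/- replicates 1, 2 and 3. Each Nr2e3-/- library was below each WT library by a narrow margin, which held for no other of the 7 genes. The log2 fold change was -0.22 (SE 0.10, 95% interval -0.44 to 0.01, adjusted p = 0.24 from edgeR), and -0.17 (SE 0.09, adjusted p = 0.218) without Nr2e3-/- replicate 1.

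Slc30a10 encodes a transporter of the ZnT family that exports manganese from hepatocytes, at chr1:185454848-185468762 on the plus strand. It measured 34.4, 23.9 and 29.0 CPM in WT and 39.5, 35.4 and 43.5 CPM in Nr2e3-/- replicates 1, 2 and 3. All Nr2e3-/- libraries were above WT, and here replicate 1 did not stand apart. Its log2 fold change was 0.44 (SE 0.16, 95% interval 0.07 to 0.81), with an unadjusted p of 0.0264 and an adjusted p of 0.18 from edgeR. It was 0.45 (SE 0.17, adjusted p = 0.114) without Nr2e3-/- replicate 1.

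**Figure D4:**
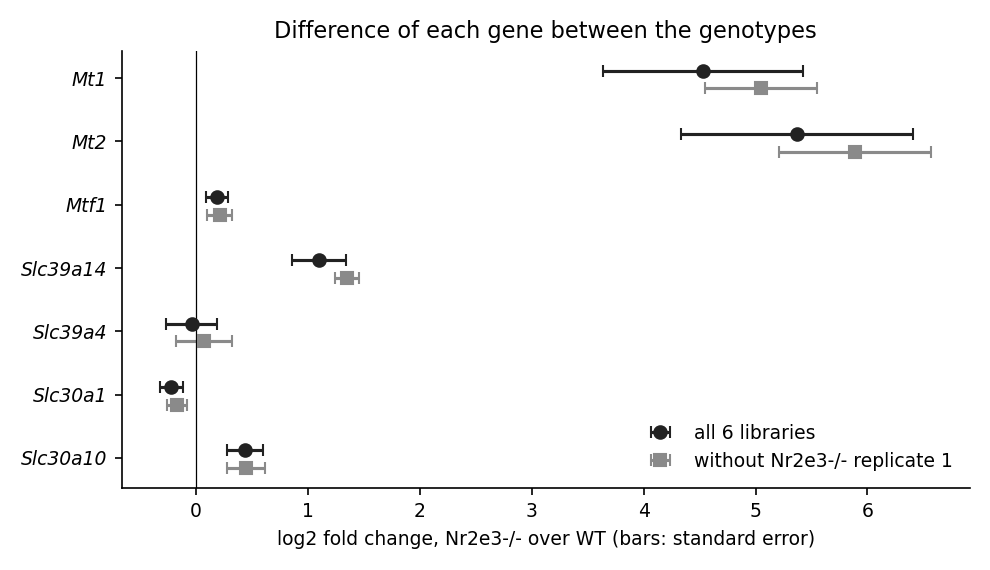
Log2 fold change of Nr2e3-/- over WT for each of the 7 genes, with standard errors, from all 6 libraries (circles) and without Nr2e3-/- replicate 1 (squares). Leaving that library out moves Mt1 from 4.53 to 5.05, Mt2 from 5.37 to 5.89 and Slc39a14 from 1.10 to 1.35, and narrows their standard errors.

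Calls differed between tests. With DESeq2, Mt1, Mt2 and Slc39a14 passed (adjusted p = 0.000174, 6.03e-05 and 0.000886), on a background of 8.0% of genes called. With limma-voom and sample quality weights, which lowers the weight of libraries that fit poorly, the same genes passed (adjusted p = 0.0137, 0.0146 and 0.0134), on a background of 17.4%. Mtf1, Slc39a4, Slc30a1 and Slc30a10 passed in none of the 13 alternatives run, and Mt1, Mt2 and Slc39a14 in 3 of the 13. Of the 6 edgeR fits that left out 1 library, only the 1 without Nr2e3-/- replicate 1 called Mt1, Mt2 and Slc39a14. In the other such fits their adjusted p was 0.138 to 0.342. Replicate 1 was the Nr2e3-/- library nearest WT for these genes, so leaving it out had to raise their log2 fold changes.

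Levels of different genes were compared as CPM per kilobase of the principal transcript. In WT the order was Mt1 (97.4), Slc39a14 (70.1), Mt2 (56.5), Slc39a4 (32.9), Slc30a1 (14.9), Slc30a10 (4.99) and Mtf1 (4.83), as means of 3 libraries. Ranges of Mt1 and Mt2 overlapped that of Slc39a14, Mt2 overlapped Slc39a4, and Slc30a10 overlapped Mtf1, so these neighbours did not differ beyond their spread. In Nr2e3-/- tumors Mt2 (2334 ± 1738, SD, n = 3) and Mt1 (2255 ± 1636, SD, n = 3) led with overlapping ranges. Slc39a14 (150.1), Slc39a4 (31.9), Slc30a1 (12.8), Slc30a10 (6.76) and Mtf1 (5.49) followed, with no overlap between neighbours. Per kilobase the importer Slc39a14 was thus the most abundant of the 4 transporters in both genotypes.

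Of 20 further ZIP and ZnT genes 17 were tested, of which 4 were higher and 2 lower at an unadjusted p under 0.05. The background at that p was 11.8% of all genes tested higher and 9.72% lower. With adjustment 0 of the 17 passed in edgeR. DESeq2 called 3 and limma-voom 5 of them, beside 8.0% and 17.4% of all genes. Their median log2 fold change was 0.05. Slc39a10, a plasma membrane zinc importer, had 6.99, 5.11 and 5.9 CPM in WT and 9.0, 34.4 and 34.3 CPM in Nr2e3-/- replicates 1, 2 and 3. Replicate 1 was again near WT, and the log2 fold change was 2.12 (SE 0.47, adjusted p = 0.102 from edgeR). Slc30a5, which carries zinc into the secretory pathway, had 74.6, 62.5 and 59.3 CPM in WT and 95.1, 139 and 188 CPM in Nr2e3-/- tumors. All Nr2e3-/- libraries were above WT, with a log2 fold change of 1.10 (SE 0.24, adjusted p = 0.1 from edgeR). Slc30a7, of the same pathway, had 0.43 (adjusted p = 0.136), and Slc39a1, a widely expressed importer, had 0.58 (adjusted p = 0.197).

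Lower values were found for the importers Slc39a5 and Slc39a8. Slc39a5, known from pancreas and intestine, measured 2.3, 0.947 and 1.8 CPM in WT. It had 0.265, 0.446 and 0.433 CPM in Nr2e3-/- replicates 1, 2 and 3, from only 4, 12 and 8 counts. The value of replicate 1 is near the limit of 0.195 CPM set for a count of 0 in that library. The log2 fold change of Slc39a5 was -2.09 (SE 0.43, adjusted p = 0.0963 from edgeR). Pancreas acinar markers, whose summed level was 0.0677 to 0.115 CPM in WT and at most 0.0371 CPM in Nr2e3-/- tumors, were close to 0, with Cpa1, Ctrb1 and Pnlip at 0 in each library. The 5 intestinal markers summed to 65.5 to 115 CPM in WT and 47.1 to 71.2 CPM in Nr2e3-/- tumors, with Alpi and Cdx2 at 0, and their part in the Slc39a5 value was not tested. Slc39a8, which carries zinc and manganese, had a log2 fold change of -0.45 (SE 0.13, adjusted p = 0.132 from edgeR) and did not overlap between groups. Without Nr2e3-/- replicate 1, 7 of the 17 genes passed, Slc39a10 and Slc30a5 among them (adjusted p = 0.00117 and 0.00492 from edgeR), beside 21.8% of all genes tested in that setting.

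**Figure D5:**
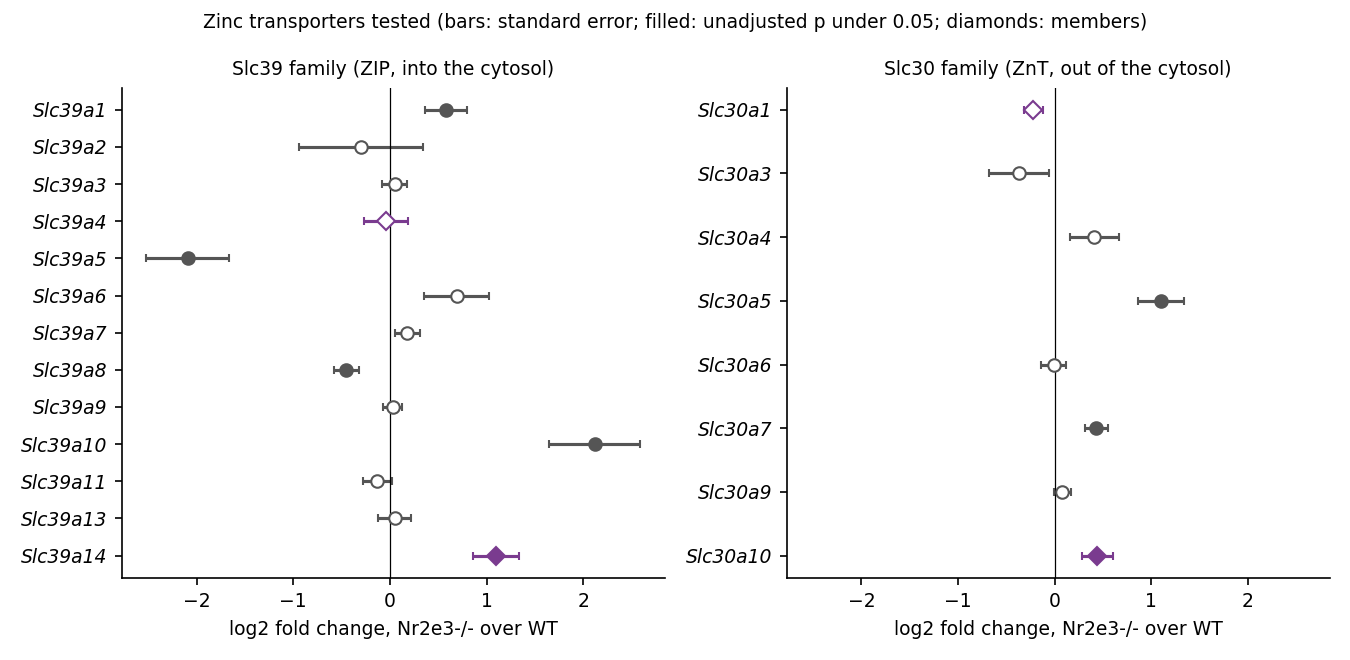
Log2 fold change of Nr2e3-/- over WT with standard errors for the tested Slc39 (left) and Slc30 (right) genes, from all 6 libraries. Diamonds mark the 4 transporters named at the start and filled symbols an unadjusted p under 0.05. Values run from -2.09 (Slc39a5) to 2.12 (Slc39a10), on both sides of 0 in both families.

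Further genes known to be regulated by MTF-1, in either direction, were taken from a list of 6, of which 5 were tested. All 5 had a positive log2 fold change, with a median of 0.14, but only Slc39a10, which MTF-1 is known to repress, had an unadjusted p under 0.05. Of all 13572 genes tested, 6890 had a positive log2 fold change. At that p 11.8% of all genes tested were higher and 9.72% lower. Without Nr2e3-/- replicate 1 the median was 0.37, and 2 of the 5 passed in edgeR beside 21.8% of all genes tested in that setting. Gclc, which makes the precursor of glutathione, had 393, 366 and 369 CPM in WT and 271, 1192 and 863 CPM in Nr2e3-/- replicates 1, 2 and 3. Replicate 1 lay below WT and the others far above it, with a log2 fold change of 1.04 (SE 0.46, unadjusted p = 0.057 from edgeR). It passed without replicate 1 (adjusted p = 0.00369). Copper handling genes were centred near 0, with a median of 0.03 over 10 genes. At an unadjusted p under 0.05, 1 was higher and 1 lower, beside the same 11.8% and 9.72% of all genes tested. Of these, the copper chaperone Atox1 had 0.30 (SE 0.11, unadjusted p = 0.0311 from edgeR), and Atp7b, which exports copper into bile, had -1.04 (SE 0.34, unadjusted p = 0.0171). None passed with adjustment in edgeR, while DESeq2 called 1 and limma-voom 2 of the copper genes, near the 8.0% and 17.4% of all genes that these tools called.

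Glucocorticoids and interleukin-6 are known inducers of metallothioneins, and lists of their target genes were examined in the same libraries. Of 9 glucocorticoid receptor and target genes, 4 were higher and 1 lower at an unadjusted p under 0.05. Of all genes tested 11.8% were higher and 9.72% lower at that p. None of the 9 passed with adjustment in edgeR, and their median log2 fold change was 0.40. Fkbp5, a chaperone gene induced by glucocorticoids, had 81.7, 83.5 and 81.7 CPM in WT and 224, 148 and 269.6 CPM in Nr2e3-/- replicates 1, 2 and 3. Zbtb16, another such target, had 18.2, 14.0 and 19.0 CPM in WT and 73.8, 42.6 and 57.5 CPM in Nr2e3-/- tumors. Nr2e3-/- replicate 1 was here above replicate 2, and the log2 fold changes were 1.38 (SE 0.21, adjusted p = 0.0844 from edgeR) for Fkbp5 and 1.76 (SE 0.22, adjusted p = 0.07) for Zbtb16. Tsc22d3 had 0.90, but its groups overlapped. It measured 64.1, 69.0 and 42.2 CPM in WT and 173, 65.4 and 88.7 CPM in Nr2e3-/- replicates 1, 2 and 3. Tat had 1.30, while Dusp1 had -0.48. The median over the 9 genes was 0.22 without Nr2e3-/- replicate 1, when 2 of the 9 passed in edgeR beside 21.8% of all genes. DESeq2 called 3 of these genes and limma-voom 4, beside 8.0% and 17.4% of all genes.

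The 10 interleukin-6 receptor and STAT3 target genes all had positive log2 fold changes, 8 of them with an unadjusted p under 0.05 and 0 with adjustment in edgeR. The background at that unadjusted p was 11.8% of all genes higher. DESeq2 called 7 and limma-voom 7 of the 10, beside 8.0% and 17.4% of all genes. Their median was 1.06, and 1.38 without Nr2e3-/- replicate 1, when 9 of the 10 passed beside 21.8% of all genes. Saa1, a serum amyloid A gene, had 49.3, 28.0 and 19.9 CPM in WT and 138, 1028 and 1089.8 CPM in Nr2e3-/- replicates 1, 2 and 3. Its levels followed the same order of Nr2e3-/- libraries as Mt1, at a log2 fold change of 4.54 (SE 0.80, adjusted p = 0.093 from edgeR). Il6ra, a subunit of the interleukin-6 receptor, had 0.98 (SE 0.17, adjusted p = 0.093) and Socs3, a feedback inhibitor of STAT3, had 2.28 (SE 0.82, adjusted p = 0.18). Socs3 measured 11.7, 9.85 and 10.6 CPM in WT and 5.3, 96.5 and 54.0 CPM in Nr2e3-/- replicates 1, 2 and 3. Its level in Nr2e3-/- replicate 1 was thus below each WT library. The others at an unadjusted p under 0.05 were Saa2 (5.34), Orm1 (1.32), Fgb (1.15), Stat3 (0.86) and Il6st (0.81), given as log2 fold changes. Groups overlapped for Lcn2, at 0.77 (SE 1.31, unadjusted p = 0.576 from edgeR), and Hp, at 0.74 (SE 0.36, unadjusted p = 0.0754). Lcn2 measured 64.8, 487 and 25.9 CPM in WT and 19.7, 704 and 260.2 CPM in Nr2e3-/- replicates 1, 2 and 3.

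Neutrophil and bile duct markers were highest in the same Nr2e3-/- libraries as Mt1 and Mt2. The summed level of the neutrophil markers, of which 4 of 5 were listed, was 1.49 to 2.74 CPM in WT and 2.32, 22.1 and 13.1 CPM in Nr2e3-/- replicates 1, 2 and 3. The 6 bile duct markers summed to 57.3 to 119 CPM in WT and 69.1, 429 and 185 CPM in Nr2e3-/- replicates 1, 2 and 3. The 5 Kupffer cell markers summed to 235 to 294 CPM in WT and 208 to 529 CPM in Nr2e3-/- tumors, and the 5 red cell genes to 121 to 166 and 195 to 264 CPM. Lymphocyte markers were 2.3 to 5.85 and 1.14 to 3.27 CPM, stellate cell and fibroblast markers 224 to 243 and 144 to 252 CPM, and endothelial markers 267 to 280.4 and 227 to 283 CPM. No marker of these lists was at 0 in each library. Their part in the Mt1, Mt2 and Slc39a14 levels was not tested.

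The genes most like each gene were taken by Pearson r of log2 CPM over the 6 libraries, which differ in depth and genotype. For Mt1 they were Kdm4a, Atic and Tm9sf4, and for Mt2 Tbrg1, Kdm4a and Smn1, each with r = 0.998. All of these had much smaller log2 fold changes than the metallothioneins, from 0.27 (Tm9sf4) to 0.80 (Kdm4a). For Slc39a14 they were Serpina10 (r = 0.998), Rad17 (r = 0.997) and a gene whose symbol had turned into a date in the deposited table (r = 0.997). Serpina10, a secreted inhibitor of coagulation, had a log2 fold change of 1.32. For Slc39a4 they were Slc30a6 (r = 0.975), Nutf2 (r = 0.966) and Nt5c3b (r = 0.963). Many genes share the step between libraries, since 490 of 13565 genes (3.61%) had r above 0.95 with Mt1, 399 (2.94%) with Mt2 and 620 (4.57%) with Slc39a14, but 6 (0.0442%) with Slc39a4. Between the 7 genes, Mt1 and Slc39a14 had r = 0.99, Mt1 and Slc30a1 -0.70, and Mt1 and Slc39a4 0.37.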

How the data were processed

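Total RNA from 3 WT and 3 Nr2e3-/- liver tumors was sequenced from TruSeq libraries. The authors deposited raw read counts per gene, and the submitters' processing notes name TopHat, featureCounts, Bowtie2 2.4.5, SAMtools 1.14, DESeq and the builds mm10 and hg38. Reads were single-end and aligned to mm10 (GRCm38), and strand use in counting is not given in the sources used here. A normalised table and the authors' own comparison columns (fold changes and p-values) were deposited too and were not used.

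Counts of 24063 genes were filtered with filterByExpr (minimum count 10, minimum total 15), which kept 13572, normalised by TMM and tested with edgeR 4.0.16 in R 4.3.3 (quasi-likelihood test, two-sided, Benjamini-Hochberg adjustment over all genes tested, threshold 0.05). A prior count of 2 entered the log2 CPM values. Libraries held 15376261 to 28690279 counts in total. The limit set by a count of 0 was placed at 3 counts. The fold change scale is log2 of Nr2e3-/- over WT. Samples were grouped by genotype and title. Alternatives were DESeq2 1.42.0, limma-voom with quality weights (limma 3.58.1), RLE or upper quartile normalisation, the replicate number as a block, each library left out, and filters that kept any gene with 1 count or asked for 10 counts in all libraries. Summing Mt1 and Mt2 and leaving libraries out of the Mt2 share were added after the data were seen. The pipeline was tested on simulated counts in which no library was made to stand apart, so that test does not measure its power in these data. Positions are from GENCODE M21 and promoters from RefSeq.

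Members and lists were chosen with earlier results of these data known, and list genes were written from memory. Named genes are the 7 members, list genes with an unadjusted p under 0.05, and the 3 genes most correlated with Mt1, Mt2, Slc39a14 and Slc39a4. Gclc, Lcn2, Hp, Mt3, Mt4 and genes next to the cluster were described after their values had been seen. Adgre1 and Selenow were found by older symbols, and Ly6g was not matched.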

Additional observations from a re-analysis of the deposited data

How the results depend on the processing

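Mt1, Mt2, Mtf1, Slc39a14, Slc30a1 and Slc30a10 kept their direction in all 13 alternatives, and Slc39a4 turned positive in 4 of them. By unadjusted p from edgeR, Slc30a1 went from 0.0544 to 0.0104 with upper quartile normalisation and 0.0393 with at least 10 counts in every library. Slc30a10 went from 0.0264 to 0.0579 with upper quartile normalisation. For Mtf1 the unadjusted p was 0.117 from edgeR and 0.0441 from limma-voom. The number of all genes called, 13 in the comparison reported, was 8 with upper quartile normalisation, 1096 with DESeq2, 2360 with limma-voom, 70 with no filter beyond 1 count and 7 with at least 10 counts in every library. Of the 7 genes, 3 passed with DESeq2 and 3 with limma-voom, at log2 fold changes of 4.55 and 4.71 for Mt1, 5.38 and 5.63 for Mt2 and 1.11 and 1.20 for Slc39a14. Limma-voom counted 4981 genes at an unadjusted p under 0.05 and gave Slc39a4 0.03. Upper quartile normalisation moved the median of all genes from 0.01 to -0.08, that of the other transporters to -0.03 and that of copper handling to -0.05, with 1 copper gene at an unadjusted p under 0.05, and limma-voom had 4 such copper genes. MTF-1 targets at that p numbered 2 with DESeq2, 2 with limma-voom and 2 with no filter. Leaving out 1 library at a time gave 0 to 3022 genes called, the highest without Nr2e3-/- replicate 1 and 0 without WT replicate 1, WT replicate 3 or Nr2e3-/- replicate 3. It gave 1693 to 5220 genes at an unadjusted p under 0.05 and 0 to 3 of the 7 genes called. Log2 fold changes ran from 4.15 to 5.05 for Mt1, 4.91 to 5.89 for Mt2, 0.96 to 1.35 for Slc39a14 and -0.27 to 0.14 for Slc39a4. The difference in Mt2 share, an alternative added after the data were seen, ran from 11.7 to 17.3 percentage points. Slc39a4 was 0.14 without WT replicate 1, 0.03 without WT replicate 2 and 0.07 without Nr2e3-/- replicate 1. Counts at an unadjusted p under 0.05 ran from 1 to 2 for MTF-1 targets, 0 to 3 for copper handling and 3 to 6 for glucocorticoid targets. Medians ran from -0.03 to 0.07 for copper handling and 0.18 to 0.71 for glucocorticoid targets, the last without WT replicate 3. With the replicate number as a block 0 genes were called and 2438 had an unadjusted p under 0.05, Mt1 was 4.28 (adjusted p = 0.178) and 1 copper gene had an unadjusted p under 0.05. Same-numbered libraries deviated together by r of -0.077, 0.221 and 0.023, so the numbers were not taken to pair the samples. The cause of these differences was not tested.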
